A study of Mus musculus with 8 samples.

Results

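The genes described here make, move and break down haem in cultured fibroblasts of mouse embryos (MEFs), cells of the connective tissue that grow out of a minced embryo. They are 9 of 18193 genes on the array: Alas1, Alad and Fech for synthesis, Slc48a1 and Flvcr1 for transport, and Hmox1, Hmox2, Blvra and Blvrb for breakdown. All 16 probe sets whose platform annotation names 1 of these genes alone were taken, out of 45037 probe sets. The genes were chosen by pathway role with their measured differences between Cebpg-/- and WT in view, so those differences are given as a description and not as a test. The 4 WT cultures carry Cebpg and the 4 Cebpg-/- cultures lack it. Cebpg encodes C/EBPγ, a DNA-binding leucine zipper protein of the C/EBP family, and the comparison asks what its loss does to gene expression. Both groups are C57BL/6 cells from E13.5 embryos, kept in DMEM with 10% serum, seeded equally densely at passage 3 and harvested after 48 hours with no agent named in the labels. The loss is present in all cells from the start of development. The labels call the samples biological replicates and do not say whether each came from its own embryo, so errors and p-values reflect only how these samples vary.

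Haem is an iron-holding ring that cytochromes and other proteins use to carry electrons or oxygen. Its synthesis starts and ends in mitochondria, with Alas1 as the step that sets the rate outside red cells and ferrochelatase (Fech) placing the iron in the ring. Haem oxygenase opens the ring, which frees iron and carbon monoxide and leaves biliverdin, and biliverdin reductases turn that into bilirubin. In fibroblasts haem oxygenase 1 is best known as a stress gene, held down by the haem-binding repressor BACH1 and switched on by NRF2 with small MAF partners.

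Values are log2 expression values from RMA, 1 per probe set and array, and levels of different probe sets are not compared. The median probe set lay between 2.70 and 2.76 on the 8 arrays. Of the 3 probe sets of Cebpg, 1 fell by 0.78 in Cebpg-/- with no overlap between the groups, the brightest differed by -0.17 with overlap, and the dimmest was higher by 0.26 without overlap (2.60 to 2.91 in WT, 2.96 to 3.20 in Cebpg-/-) and was not called. The labels do not say which probe sets lie in the deleted part. All 14 fibroblast markers were above the median probe set on every array, and the limma fit called 6 of them lower in Cebpg-/- and none higher. Their mean was 9.28 ± 0.12 in WT and 8.98 ± 0.14 in Cebpg-/- (SD, n = 4). Col1a1 fell by 1.05 (limma, adjusted p = 0.00738), and Pdgfra differed by -0.15 and was not called. The part of the fibroblast markers in the differences of the haem genes was not tested. All 10 measured markers of red cells were below the median probe set on every array, Alas2 and Klf1 among them. Of 7 measured hepatocyte markers, 2 were above the median probe set on every array and 4 were below it on every array. Alb was near the bottom of the scale, at 1.48 to 1.91. Afp read 1.37 to 1.53 in WT and 2.18 to 3.47 in Cebpg-/-, and was called higher (limma, adjusted p = 0.00784). Of 6 epithelial markers, 4 were above the median probe set on every array and 2 were below it. Epcam read 4.45 to 4.64 in WT and 4.03 to 4.34 in Cebpg-/-, and was called lower (limma, adjusted p = 0.0200). Cdh1 read 1.23 to 1.49 over all arrays. Of 7 endothelial markers, 1 was above the median probe set on every array and 4 were below it. Pecam1 read 1.59 to 1.82 and Cdh5 1.99 to 2.31.

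Among the 9 genes, haem synthesis, transport and breakdown were each higher at 1 or 2 points in Cebpg-/- cells, and not along the whole path. Hmox1, Blvrb, Slc48a1, Alas1 and Flvcr1 were higher, by 0.42 (Flvcr1) to 2.73 (Hmox1) on the log2 scale, and Hmox2, Blvra, Alad and Fech stayed within 0.16 of WT. The limma fit over all probe sets called 7 of the 16 probe sets higher and none lower at a Benjamini-Hochberg adjusted p of 0.05, where it called 4.82% of all probe sets higher and 2.78% lower. Over genes, with the brightest probe set standing for each, it called 5 of 9 higher and none lower, where it called 8.62% of all genes higher and 3.99% lower. At an unadjusted limma p under 0.05, 8 of the 16 probe sets were higher and 0 lower, where 12.5% of all probe sets were higher and 10.8% lower. Nothing is read from these counts, since this contrast was known when the genes were chosen. The median difference was 0.42 over the 9 genes and -0.00092 over all genes. In the same 5 genes all 4 Cebpg-/- values lay above all 4 WT values, which held for 12.8% of all genes, with 6.74% separated the other way. The same was true of 7 of the 16 probe sets and of 8.71% of all probe sets, with none and 6.31% separated the other way.

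**Figure D1:**
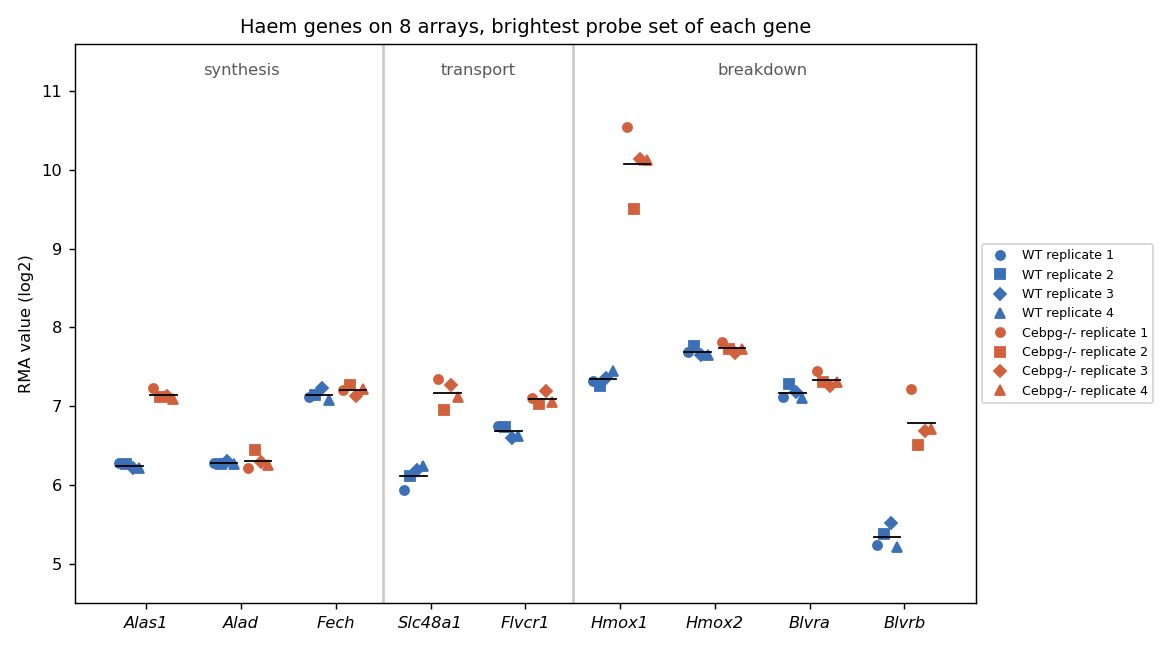
RMA values (log2, y axis) of the brightest probe set of each of the 9 haem genes, for the 4 WT arrays (blue) and the 4 Cebpg-/- arrays (orange), with marker shape for the replicate and a black line for the group mean. Levels are to be read within a gene only. Alas1, Slc48a1, Flvcr1, Hmox1 and Blvrb show no overlap between the groups. Among them, Cebpg-/- replicate 2 is the lowest Cebpg-/- array for Hmox1, Slc48a1, Blvrb and Flvcr1.

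Among the synthesis members, Alas1 at the first step differed, and Alad and Fech did not do so visibly. Of the other enzymes in the chain, Urod was called higher and Cpox lower, with the limits given below. Alas1, which encodes the housekeeping 5-aminolevulinate synthase, read 6.28, 6.27, 6.21 and 6.22 on WT replicates 1 to 4 and 7.23, 7.12, 7.13 and 7.09 on Cebpg-/- replicates 1 to 4. The groups were each tight and lay 0.81 apart at their nearest values. The means were 6.24 ± 0.04 and 7.14 ± 0.06 (SD, n = 4), a difference of 0.90 (standard error 0.06 from the limma fit) or 1.87-fold. A second Alas1 probe set read 5.44, 5.67, 5.60 and 5.48 in WT and 6.25, 6.09, 6.21 and 6.21 in Cebpg-/-, a smaller difference of 0.65 in the same direction and again with no overlap.

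Alad, which joins pairs of aminolevulinate molecules into porphobilinogen, read 6.28, 6.26, 6.30 and 6.26 in WT and 6.21, 6.44, 6.29 and 6.25 in Cebpg-/-. The groups overlapped and the difference was 0.02, with a 95% interval of -0.12 to 0.16. Cebpg-/- replicate 2, at 6.44, was the one Alad value above the WT range. A second, dimmer Alad probe set differed by -0.05, with an interval of -0.19 to 0.09.

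Fech read 7.11, 7.14, 7.23 and 7.08 in WT and 7.20, 7.27, 7.13 and 7.22 in Cebpg-/- on its brightest probe set. The difference was 0.06 with an interval of -0.07 to 0.19. Its other 3 probe sets differed by 0.12, -0.03 and -0.14, and the groups overlapped on all 4. The Fech and Alad intervals therefore leave room for changes of these sizes, and they lie below the whole Alas1 interval of 0.78 to 1.02.

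Both transport genes were higher. Slc48a1 encodes HRG1, which lets haem out of lysosomes into the cytosol. It read 5.93, 6.11, 6.19 and 6.24 in WT and 7.34, 6.95, 7.27 and 7.12 in Cebpg-/-. The lowest Cebpg-/- value lay 0.70 above the highest WT value, and the means of 6.12 ± 0.14 and 7.17 ± 0.17 (SD, n = 4) differed by 1.05 (standard error 0.10), or 2.07-fold. Its second probe set read 5.67, 5.74, 5.91 and 5.77 in WT and 6.94, 6.35, 6.67 and 6.70 in Cebpg-/-, a difference of 0.89. The arrays kept their extremes between these probe sets, with WT replicate 1 lowest in WT, and Cebpg-/- replicate 1 highest and replicate 2 lowest in Cebpg-/-.

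Flvcr1 encodes a membrane transporter described as an exporter of haem and as a carrier of choline. It read 6.75, 6.74, 6.60 and 6.62 in WT and 7.10, 7.03, 7.19 and 7.05 in Cebpg-/-. The groups did not overlap, and the difference of 0.42 (standard error 0.06), or 1.33-fold, was the smallest among the 5 higher genes. The other Flvcr1 probe set read 2.38 to 2.63 over all 8 arrays, below the median probe set, and differed by 0.02 with an interval of -0.13 to 0.18. It is the only member probe set that a filter on low values removes. The filter keeps probe sets above the median of all values on at least 4 arrays, and with it all 9 genes keep a probe set.

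Of the breakdown genes, the inducible oxygenase and reductase B were higher. Hmox1 read 7.32, 7.26, 7.36 and 7.45 in WT and 10.54, 9.50, 10.14 and 10.12 in Cebpg-/-. The WT arrays lay within a narrow band, while the Cebpg-/- arrays spread from 9.50 to 10.54, all 4 at least 2.06 above every WT array. The means were 7.35 ± 0.08 and 10.08 ± 0.43 (SD, n = 4). Hmox2, the constitutive isozyme that carries out the same reaction, read 7.69, 7.76, 7.65 and 7.65 in WT and 7.82, 7.73, 7.67 and 7.73 in Cebpg-/-. Its groups overlapped and the difference was 0.05, with an interval of -0.08 to 0.18, against 2.34 to 3.12 for Hmox1.

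The biliverdin reductases differed from each other in the same way. Blvrb encodes reductase B, which also reduces flavins and acts on the beta isomer of biliverdin rather than the alpha isomer that haem oxygenase makes. It read 5.24, 5.37, 5.52 and 5.21 in WT and 7.22, 6.50, 6.69 and 6.71 in Cebpg-/-. The nearest values lay 0.98 apart, and the means of 5.34 ± 0.14 and 6.78 ± 0.31 (SD, n = 4) differed by 1.44 (standard error 0.14), or 2.72-fold. Blvra, the reductase for the alpha isomer, read 7.12, 7.28, 7.18 and 7.10 in WT and 7.45, 7.30, 7.25 and 7.31 in Cebpg-/-. The Blvra groups overlapped, at a difference of 0.15 with an interval of 0.01 to 0.30, and the limma fit did not call it. The Blvra interval lies wholly below that of Blvrb, which ran from 1.13 to 1.75.

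**Figure D2:**
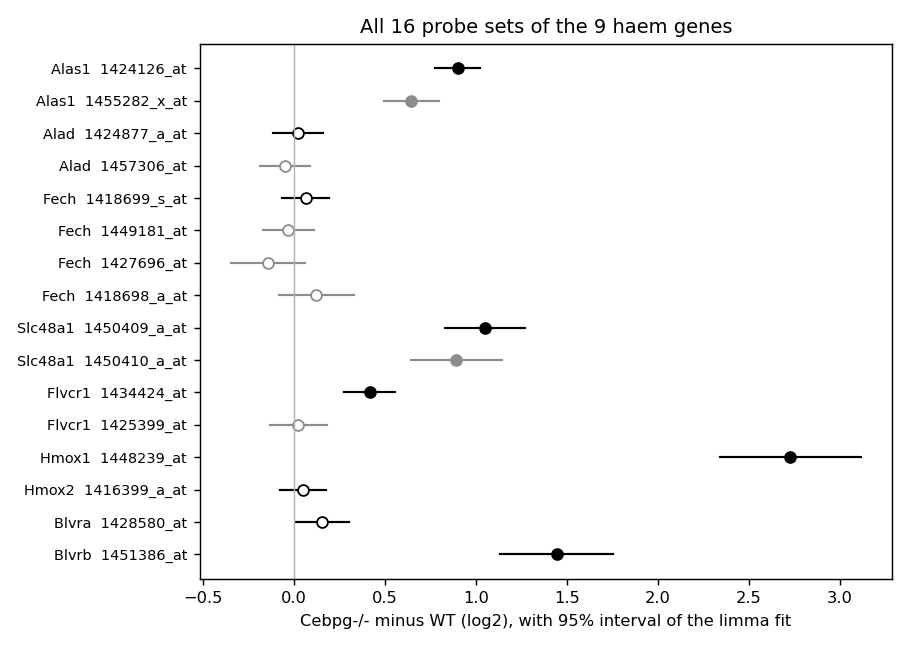
Difference Cebpg-/- minus WT (log2, x axis) with its 95% interval from the limma fit, for all 16 probe sets of the 9 haem genes. Black marks the brightest probe set of a gene and grey the others, and filled points were called over all probe sets. Hmox1 stands at 2.73, the probe sets of Blvrb, Slc48a1 and Alas1 between 0.65 and 1.44, and those of Alad, Fech, Hmox2 and Blvra within 0.16 of 0.

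The promoters of the members were compared because 5 of them were higher together. Each window is the 250 bases before the gene's most upstream start in RefSeq (GRCm38.p6), and 6 members have one, while Hmox1, Slc48a1 and Fech were not analysed here. Both strands were searched for the core of the antioxidant response element bound by NRF2 (TGACNNNGC), a composite site of C/EBP and ATF factors (TGATGNAA), a C/EBP site (TTGCNNAA) and an AP-1 site (TGANTCA). Of all 27025 genes with such a window, 10.1%, 3.53%, 9.55% and 6.85% hold them. The windows of the 3 higher genes and of Blvra are shown 5′ to 3′ along the gene, with the matches in capitals.
Alas1 (chr9:106247955-106248204, minus strand): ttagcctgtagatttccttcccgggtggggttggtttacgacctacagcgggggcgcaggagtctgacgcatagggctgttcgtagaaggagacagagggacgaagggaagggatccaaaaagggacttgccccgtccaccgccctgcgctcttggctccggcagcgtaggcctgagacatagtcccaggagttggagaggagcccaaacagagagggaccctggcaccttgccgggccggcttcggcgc
Flvcr1 (chr1:191026191-191026440, minus strand): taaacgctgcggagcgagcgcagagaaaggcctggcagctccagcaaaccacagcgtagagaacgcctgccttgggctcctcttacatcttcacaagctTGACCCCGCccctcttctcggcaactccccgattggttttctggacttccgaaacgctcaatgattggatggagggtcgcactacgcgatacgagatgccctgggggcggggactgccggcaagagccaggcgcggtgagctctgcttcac
Blvrb (chr7:27447728-27447977, plus strand): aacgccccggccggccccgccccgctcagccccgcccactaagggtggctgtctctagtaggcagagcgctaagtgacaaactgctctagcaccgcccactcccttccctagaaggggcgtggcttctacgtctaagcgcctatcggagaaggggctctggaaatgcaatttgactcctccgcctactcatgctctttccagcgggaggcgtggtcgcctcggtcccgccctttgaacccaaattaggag
Blvra (chr2:127070407-127070656, plus strand): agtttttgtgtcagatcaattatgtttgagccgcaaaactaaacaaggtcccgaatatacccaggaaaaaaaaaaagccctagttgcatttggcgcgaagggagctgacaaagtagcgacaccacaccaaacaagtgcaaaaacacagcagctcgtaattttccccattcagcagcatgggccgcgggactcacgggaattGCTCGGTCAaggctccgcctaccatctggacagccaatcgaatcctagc
The windows of Flvcr1 and Blvra each hold 1 antioxidant response element core, at -151 to -143 in Flvcr1 and at -49 to -41 in Blvra, counted from the start. Of these, Flvcr1 was higher in Cebpg-/- and Blvra was not called. The windows of Alas1, Blvrb, Alad and Hmox2 hold none of the 4 motifs. Hmox1 and Slc48a1, which were also higher, have no window here. Whether the motifs bear on the differences was not tested. A match is a run of letters and not a measured binding site, and windows this short leave out distant enhancers.

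Within Cebpg-/-, Hmox1, Slc48a1 and Blvrb were highest on the array with the highest leukocyte marker mean and lowest on that with the lowest. The mean of 24 leukocyte markers read 3.29, 4.85, 4.73 and 4.85 on WT replicates 1 to 4 and 6.83, 4.43, 6.09 and 5.86 on Cebpg-/- replicates 1 to 4. All 24 had a higher mean in Cebpg-/-, and the limma fit called 2 of them (Cd14 and Marco) higher. Of the defining markers, Csf1r read 5.38 to 7.39 in WT and 6.51 to 9.26 in Cebpg-/-, and Adgre1 4.14 to 5.58 and 4.8 to 7.4. Ptprc read 1.73 to 4.07 in WT and 2.95 to 5.93 in Cebpg-/-, and its value on WT replicate 1, 1.73, was below the median probe set. In bulk RNA more leukocytes and more RNA of these genes per cell cannot be told apart. Hmox1 and the brightest Slc48a1 probe set ranked the 4 Cebpg-/- arrays in the order of the marker mean. For Hmox1 this order rests on nearly equal values on replicates 3 and 4, 10.14 and 10.12. Blvrb had the same extremes, but read 6.69 on replicate 3 and 6.71 on replicate 4. A rank order over 4 arrays is weak evidence. The second Slc48a1 probe set had the same extremes, but read 6.67 on replicate 3 and 6.70 on replicate 4, against the marker order. Of the 7 called probe sets, 6 were highest on Cebpg-/- replicate 1 and 6 lowest on replicate 2.

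The values on single arrays and with the markers in the fit were as follows. On Cebpg-/- replicate 2 the marker mean, 4.43, lay below that of 3 of the 4 WT arrays, and Hmox1 read 9.50 there against at most 7.45 in WT, Slc48a1 6.95 against 6.24, Blvrb 6.50 against 5.52 and Alas1 7.12 against 6.28. On WT replicate 1 the marker mean was the lowest of all, and Hmox1, at 7.32, stayed within the range of the other WT arrays, while Slc48a1 was the lowest WT value on both of its probe sets (5.93 and 5.67). With the marker mean as a covariate the differences were 2.35 for Hmox1, 1.18 for Blvrb, 0.82 for Slc48a1 and 0.88 for Alas1, and these 4 were still called over genes. Flvcr1 kept a difference of 0.41 but was no longer called with the covariate (limma, adjusted p = 0.0578). Without Cebpg-/- replicate 1 and WT replicate 1, which had the highest and the lowest marker mean, the differences of Hmox1, Blvrb and Slc48a1 were 2.57, 1.27 and 0.93. Beyond these values, the part of leukocyte RNA in the differences was not tested.

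**Figure D3:**
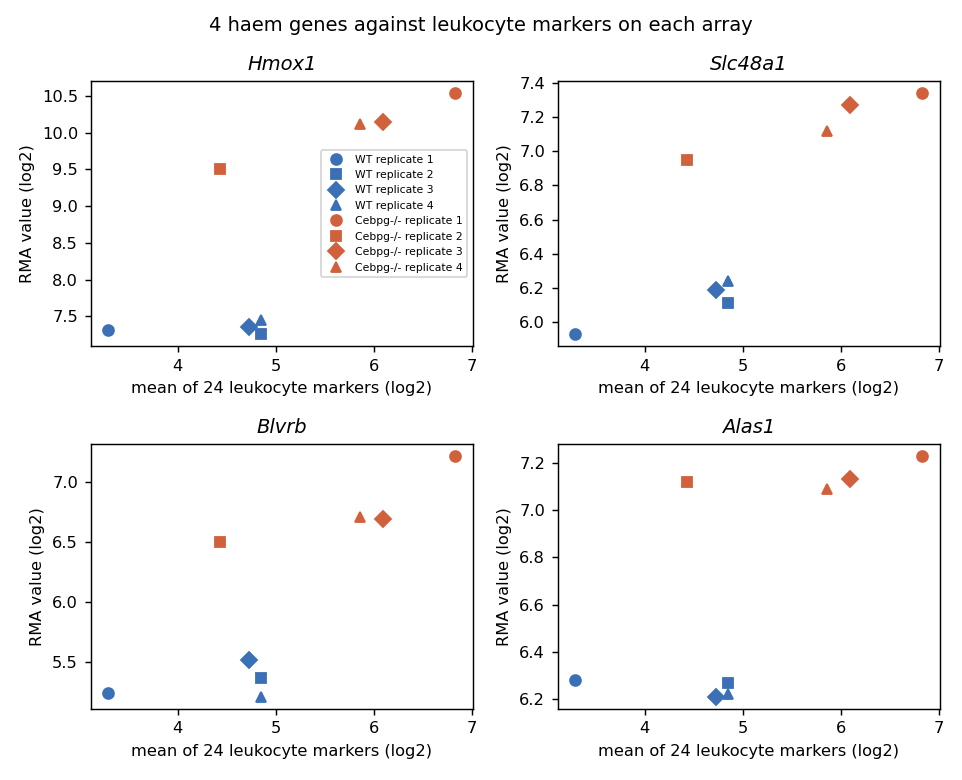
RMA value (log2, y axis) of Hmox1, Slc48a1, Blvrb and Alas1 against the mean of 24 leukocyte markers (log2, x axis), 1 point per array, WT in blue and Cebpg-/- in orange. Within Cebpg-/- the first 3 genes are highest on the array with the highest marker mean (6.83) and lowest on that with the lowest (4.43), and all 4 genes are above every WT array on the latter.

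After subtracting each genotype's mean, the correlation of the deviations over the 8 arrays was at least 0.5 in size in 14 of the 36 pairs of members, and above 0 in 10 of these 14. The deviations of Hmox1 correlated with those of Slc48a1 at r = 0.79 and of Blvrb at r = 0.78, and with those of the leukocyte marker mean at r = 0.80. With the marker mean, r was 0.95 for Slc48a1, 0.72 for Blvrb, 0.26 for Alas1, 0.04 for Flvcr1 and -0.77 for Alad. Among the pairs with low values, r was 0.21 for Hmox1 with Flvcr1 and 0.22 for Alas1 with Slc48a1. Alad ran against Hmox1, at r = -0.94, over values that spanned 6.21 to 6.44. These are descriptions over 8 arrays that share 1 normalization.

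The genes whose pattern over the 8 arrays was most like that of a member were found among 9095 other genes above the median gene. For Hmox1 they were Mt1 (a metallothionein, r = 0.997), Galc (a lysosomal galactosylceramidase, 0.995) and Tmem106b (a lysosomal membrane protein, 0.995). For Blvrb they were Cltb (a clathrin light chain, 0.996), Pfn2 (a profilin, 0.995) and again Tmem106b (0.995). For Alas1 they were Nup50 (a nucleoporin, 0.994), Comtd1 (0.991) and Zfp874a (0.991). Most of each correlation is the step between the genotypes. With genotype means removed the correlation was 0.93, 0.94 and 0.87 for the genes like Hmox1. It was 0.96, 0.93 and 0.95 for those like Blvrb, and 0.82, 0.84 and 0.61 for those like Alas1. The genes were picked for the highest correlation over the same 8 arrays, which favours high values here too. These values are therefore no separate evidence of a shared pattern.

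Beyond the 9 members, 50 measured genes of haem metabolism were taken from the same fit, and 37 of them were not called. These lists too were chosen with earlier results of these data known. Their counts and p-values are a description and no separate support for the differences of the members. The limma fit called 9 higher and 4 lower, where it called 8.62% of all genes higher and 3.99% lower, and the median difference was 0.08 against -0.00092 over all genes. At an unadjusted p under 0.05, 17.5% of all genes were higher and 10.9% lower, and the counts of the lists below stand beside these shares. Of the 13 calls, those of Lonp1 and Fdx1 held in every alternative fit.

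Of 14 measured synthesis genes the fit called 3 higher and 2 lower and left 9 uncalled. At an unadjusted limma p under 0.05, 6 were higher and 4 lower, beside the shares of all genes given above. Of the other enzymes in the chain, Urod (uroporphyrinogen decarboxylase) rose from 7.56 ± 0.07 to 7.85 ± 0.06 and Cpox (coproporphyrinogen oxidase) fell from 6.34 ± 0.11 to 5.92 ± 0.11 (SD, n = 4; limma, adjusted p = 0.0139 and 0.00867). Neither call held with the leukocyte marker covariate (limma, adjusted p = 0.171 and 0.136) or without both leukocyte extremes (0.102 and 0.0605). The differences of Uros and Ppox, 0.12 and 0.13, were not called (limma, adjusted p = 0.415 and 0.217). Alas2, the red cell form of the first enzyme, read 1.82 to 2.22 over all arrays, near the bottom of the scale.

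The other 3 called genes of this list encode mitochondrial proteins. Lonp1, a mitochondrial protease whose known substrates include ALAS1, read 7.50, 7.55, 7.67 and 7.58 in WT and 6.89, 6.90, 6.76 and 7.01 in Cebpg-/-. The groups did not overlap and the fall was -0.69 (limma, adjusted p = 0.000424). Clpx, the unfoldase of another mitochondrial protease that acts on ALAS proteins, rose by 0.32 (limma, adjusted p = 0.00773). Clpx was not called with the mean of its probe sets (limma, adjusted p = 0.0909), with the leukocyte covariate (0.138) or without both leukocyte extremes (0.0763). Its other probe set, which enters the mean, read 1.45 to 1.91 over all arrays, below the median probe set. Fdx1, a mitochondrial ferredoxin, read 7.16, 7.21, 7.21 and 7.08 in WT and 7.71, 7.56, 7.76 and 7.83 in Cebpg-/-, a rise of 0.55 with no overlap (limma, adjusted p = 0.00143). None of the 6 measured genes for building iron-sulphur clusters (Iscu, Nfs1, Isca1, Isca2, Glrx5 and Iba57) was called (limma, adjusted p from 0.0537 to 0.876).

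Of 15 measured transport genes the limma fit called 3 higher and none lower, and at an unadjusted p under 0.05 it had 5 higher and 1 lower, beside the shares of all genes given above. Abcb6, a porphyrin transporter, rose by 0.37 (limma, adjusted p = 0.00869), Slc25a37, the iron importer mitoferrin 1, by 0.40 (0.0211) and Hebp2, a haem-binding protein, by 0.29 (0.0198). The Slc25a37 call was lost with the replicate number as a block (0.0567), with the leukocyte covariate (0.269), without both leukocyte extremes (0.114), and without WT replicate 1 (0.0666), WT replicate 3 (0.0611) or Cebpg-/- replicate 4 (0.0501). The Hebp2 call was lost without Cebpg-/- replicate 1 (limma, adjusted p = 0.0625) or 4 (0.0527). With the mean of the Hebp2 probe sets it was also lost, where the difference was 0.12 (0.209). The other Hebp2 probe sets in that mean read 1.48 to 1.78, below the median probe set, and 2.98 to 3.44. Neither Hebp2 (0.146) nor Abcb6 (0.0727) passed with the leukocyte covariate, nor without both leukocyte extremes (0.105 and 0.0788). Flvcr2, the relative of Flvcr1, differed by -0.02 with an interval of -0.21 to 0.17.

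Of 8 measured genes of scavenging and disposal the limma fit called 1 higher and none lower, and at an unadjusted p under 0.05 it had 2 higher and 0 lower. Abcc1, a transporter that exports glutathione conjugates and has bilirubin among its cargoes, rose from 8.62 ± 0.06 to 9.18 ± 0.15 (SD, n = 4; limma, adjusted p = 0.00276). It did not pass with the mean of its probe sets (0.0687) or with the leukocyte covariate (0.0505). Cd163, the macrophage receptor for haemoglobin, read near 1.05 in both groups, at the bottom of the scale. Lrp1, the receptor for the haem carrier haemopexin, differed by -0.11 with an interval of -0.31 to 0.08.

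Of 13 regulators the fit called 2 higher and 2 lower. At an unadjusted limma p under 0.05, 5 were higher and 3 lower, beside the same shares of all genes. Bach1, the repressor of Hmox1, read 7.83, 7.82, 7.92 and 7.94 in WT and 7.53, 7.58, 7.39 and 7.55 in Cebpg-/-, a fall of -0.37 without overlap (limma, adjusted p = 0.00565). Its other probe set varied widely in WT, from 4.16 to 6.21, and the groups overlapped. The difference there was -0.32 with an interval of -1.08 to 0.43, which leaves its direction open. The mean of both probe sets did not pass (limma, adjusted p = 0.271), nor did Bach1 with the leukocyte covariate (0.0881). Bach2, its relative, fell by 0.91 (limma, adjusted p = 0.00579; 0.105 with the covariate). Maff, a small MAF protein, rose by 0.44 (limma, adjusted p = 0.00609), and did not pass with the covariate (0.115) or without both leukocyte extremes (0.0539).

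Nfe2l2, which encodes NRF2, rose from 7.92 ± 0.07 to 8.16 ± 0.02 (SD, n = 4; limma, adjusted p = 0.0210). The groups did not overlap, but the call was lost in 8 of the 17 alternative fits. These were the mean of its probe sets (0.156), the replicate block (0.0643), the leukocyte covariate (0.189), the fit without both leukocyte extremes (0.125), and the fits without WT replicate 1 (0.0629), WT replicate 3 (0.0564) and, of Cebpg-/-, replicate 3 (0.0591) or 4 (0.0533). The other Nfe2l2 probe set, which enters the mean, read 1.77 to 1.96 over all arrays, below the median probe set. Keap1, which marks NRF2 for breakdown, differed by 0.15 and was not called (limma, adjusted p = 0.0911). Eif2ak1, the kinase that senses low haem, differed by 0.09 with an interval of -0.05 to 0.23.

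**Figure D4:**
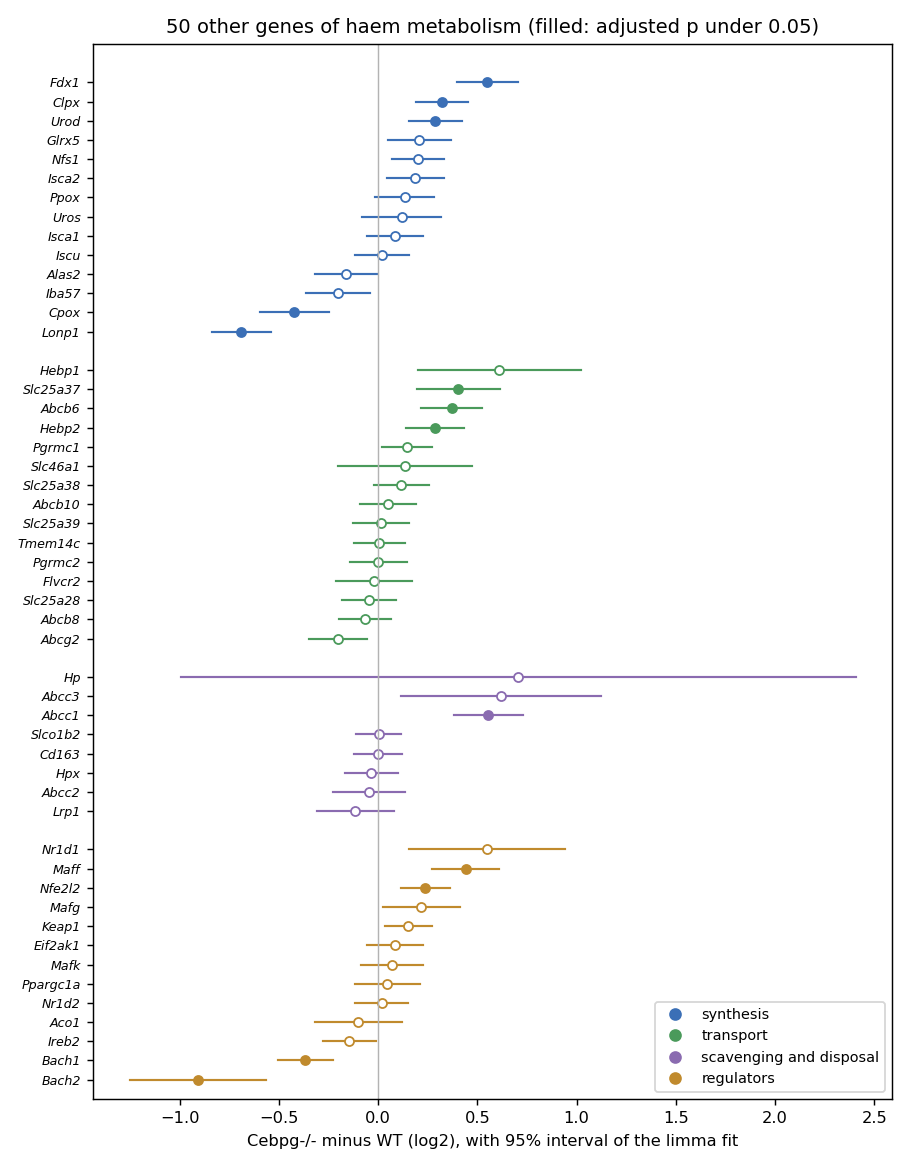
Difference Cebpg-/- minus WT (log2, x axis) with its 95% interval from the limma fit for 50 other genes of haem metabolism, coloured by list, with filled points for an adjusted p under 0.05 over all genes. Of these, 9 are filled to the right of 0 and 4 to the left (Lonp1, Cpox, Bach1 and Bach2), and Hp has the widest interval.

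Blvrb lies on chromosome 7, as does Cebpg, while the other 8 members lie on other chromosomes. In the RefSeq gene order 332 genes stand between them, of which 142 were measured. The limma fit called 11 of these higher and 6 lower, where it called 8.62% and 3.99% of all genes, and their median difference was -0.02. The 5 measured genes on the far side of Blvrb (Sptbn4, Shkbp1, Ltbp4, Numbl and Coq8b) differed by -0.19 to -0.01 and none passed. On the side towards Cebpg, Sertad1 rose by 0.86 (limma, adjusted p = 0.000115) and 2310022A10Rik by 0.31 (0.0141), while Sertad3, Pld3 and Akt2 differed by 0.11, 0.30 and -0.05 and did not pass. A single gene between Blvrb and Cebpg, chosen after its value was seen, differed by at least as much as Blvrb: the leukocyte gene Tyrobp, at 1.79 with overlap between the groups (limma, adjusted p = 0.0827).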

How the data were processed

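The deposited log2 values, 1 for each probe set on each array, come from RMA, which the submitters' processing notes name without version or settings. RMA compresses changes of dim probe sets. Total RNA (1 µg per sample, per the labels' protocols) of 8 samples was used, 1 array each, grouped by sample title; the number of arrays limits the precision, and no batch or date was given.

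Of 45101 probe sets 64 controls were left out. The platform annotation names 1 gene for 34945 probe sets, several for 932 and none for 9160; 34741 symbols were updated by Entrez number through RefSeq (GRCm38.p6). The brightest probe set stands for a gene. The fit used limma 3.58.1 (R 4.3.3; lmFit and eBayes with genotype as the term) over 45037 probe sets, and p-values adjusted by Benjamini-Hochberg over 45037 probe sets or 18193 genes. The fit was tested on simulated data. The members, lists and tests were chosen with earlier results of these data known.

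Named are all members; up to 4 called genes per haem list with the lowest p, and the synthesis enzymes; 5 genes on each side of Blvrb; the 3 genes most like Hmox1, Blvrb and Alas1; Cebpg, Nfe2l2, Bach1 and defining markers. Further genes of the lists were named after their values were seen. The alternatives were quantile normalization, array medians, the mean of probe sets, an intensity trend, array weights, the replicate block, the leukocyte marker mean, a low-value filter, a threshold of 0.1 and leaving out arrays.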

Additional observations from a re-analysis of the deposited data

Results flagged for a closer look

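An array stood apart from the other 3 of its group in 10 of the 132 groups of 4 values examined, where chance gives about 5% of groups. Among the members this was the dim probe set of Alad alone, at 3.48 on Cebpg-/- replicate 4. Among the other haem genes, Cebpg-/- replicate 1 stood above its group for Urod (7.94) and below it for Nfe2l2 (8.13). Cebpg-/- replicate 2 stood below for Abcc1 (8.96), and Cebpg-/- replicate 3 for Pgrmc1 (10.0). WT replicate 1 stood below for Slc25a28 (5.94) and Abcc3 (2.34), and WT replicate 3 for Nr1d1 (3.32). WT replicate 4 stood above for Mafg (7.52) and Maff (6.90).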

How the results depend on the processing

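No called member changed direction in any alternative. With any 1 array left out 7 member probe sets were called higher and 0 lower. Hmox1, Blvrb, Alas1 and Slc48a1 were called in all 18 fits, and Flvcr1 in 17. Leaving out 1 array gave differences of 2.58 to 2.92 for Hmox1, 1.30 to 1.54 for Blvrb, 0.87 to 0.92 for Alas1, 0.99 to 1.12 for Slc48a1 and 0.38 to 0.44 for Flvcr1. With the leukocyte marker covariate the differences moved to 2.35 for Hmox1, 1.18 for Blvrb, 0.82 for Slc48a1 and 0.11 for Alad; with all probe sets of a gene averaged, to 0.77 for Alas1, 0.22 for Flvcr1 and 0.0025 for Fech, since dimmer probe sets then enter. Of the other haem genes, 6 to 11 were called higher and 4 to 5 lower without 1 array. Beside 9 higher in the deposited values, 14 were higher with array medians subtracted, 15 at a threshold of 0.1, 5 with the mean of probe sets, 2 with the leukocyte covariate and 2 without both leukocyte extremes; 1 was lower with the covariate, beside 4. The covariate, the fit without both extremes and the replicate block all leave fewer residual degrees of freedom. The cause of the lower counts was not tested. With the replicate number as a block 7 member probe sets were called higher, and of the other haem genes 7 were called higher and 4 lower. The labels do not say whether same-numbered arrays were paired. The correlations of their deviations were -0.27, 0.13, -0.01 and 0.03, which cannot show that there was no pairing.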
